A study of Mus musculus with 108 samples.

Results

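The 10 genes described here code for microtubule-associated proteins of neurons: Map1a, Map1b, Map2, Mapt, Dcx, Dclk1, Stmn1, Stmn2, Map6 and Map6d1. They were taken by symbol from the 53465 genes of the count table, with earlier results of these data known. All 10 passed the filter on low counts in every fit. RNA came from 3 regions, cerebellum (CB), hippocampus (HIP) and cortex (CX), of mice taken as embryos (E17.5), as pups in the early postnatal period (P7) or as adults (P35). At each period 6 wild-type (WT) mice and 6 heterozygous mutant mice (Cul3+/-, HET) gave 1 library per region, so that 36 mice gave 108 libraries. Mutant mice carried 1 mutant allele of Cul3, made by CRISPR/Cas9 and passed on from a single founder, and all mice had the background that the labels spell C56Bl/6N. Cul3 codes for the scaffold of a ubiquitin ligase, and the series asks what its loss from 1 allele changes in the developing brain. For 2 adult mice the labels and the study's own sample table gave opposite genotypes, and their 6 libraries were left out, which left 102 libraries and 5 mice per genotype in adults. The library totals ran from 15126114 to 44411282 counts. Cul3 was lower in mutant mice in all 9 combinations of period and region, without overlap between genotypes, by log2 fold changes from −0.74 (adult CB) to −0.99 (adult HIP). In WT mice hippocampus and cerebellum markers summed highest in the region of their name at each period, without overlap, and forebrain markers were lower in CB than in the other regions. Levels are given as CPM, counts scaled to library sizes normalized by TMM, a scaling method of edgeR. A gene was called at an adjusted p of 0.1 or less, from edgeR's quasi-likelihood test with Benjamini-Hochberg adjustment over all genes tested. Replicates are different mice, so the p-values measure the spread between mice of this line. The study used both sexes, but the labels do not give the sex of each mouse. Mouse names of E17.5 and P7 carry prefixes that the labels do not explain. The main fits of genotype and period have no term for sex or prefix. At E17.5 and P7 each prefix holds as many WT as mutant mice, so in genotype fits its effect is part of that spread. Between periods prefix cannot be told apart from age, since E17.5 and P7 share no prefix and adult names carry none. Some mice of the same prefix deviated together at E17.5, whereas the p-values take mice as independent. An effect of sex is part of the spread only if the sexes are evenly split, which the labels do not show.

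Microtubules are polymers of tubulin that give axons and dendrites their shape and carry transport along them. The proteins described here bind along the polymer and stabilize or space it (the MAP1 proteins, Map2 and tau), bind it in young migrating neurons (the doublecortin family), hold free tubulin and favour disassembly (the stathmins), or keep the polymer stable in the cold (the MAP6 family). In the brain several of them are known for switching between growth of the neuron and its maturity, and Map2 and tau are textbook markers of dendrites and axons.

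On GRCm38, the build of the counts, Map1a lies at chr2:121289600-121310832, Map1b at chr13:99421446-99516540, Map2 at chr1:66175273-66442583, Mapt at chr11:104231390-104332090 and Dcx at chrX:143855842-143933311. Dclk1 lies at chr3:55242364-55539068, Stmn1 at chr4:134468320-134473843, Stmn2 at chr3:8509360-8561606, Map6 at chr7:99267447-99337137 and Map6d1 at chr16:20233303-20241358. Of the 10, 6 had a promoter in the RefSeq table used here (build GRCm38.p6), and Mapt, Stmn1, Stmn2 and Map6 had none. The promoters of Map1a, Map6d1 and Dcx are shown because these genes rose the most (Map1a and Map6d1) and fell the most (Dcx) between E17.5 and the adult. They are given 5′ to 3′ on the strand of the gene, which is plus for Map1a and minus for Dcx and Map6d1, ending before the annotated transcript. Capitals mark matches to the motifs searched on both strands.

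Map1a chr2:121289352-121289599: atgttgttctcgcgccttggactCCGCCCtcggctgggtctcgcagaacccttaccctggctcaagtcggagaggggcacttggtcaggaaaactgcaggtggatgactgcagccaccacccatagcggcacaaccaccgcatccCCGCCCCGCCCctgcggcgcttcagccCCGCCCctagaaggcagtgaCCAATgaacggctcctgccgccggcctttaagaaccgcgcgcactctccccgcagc
Map6d1 chr16:20241359-20241608: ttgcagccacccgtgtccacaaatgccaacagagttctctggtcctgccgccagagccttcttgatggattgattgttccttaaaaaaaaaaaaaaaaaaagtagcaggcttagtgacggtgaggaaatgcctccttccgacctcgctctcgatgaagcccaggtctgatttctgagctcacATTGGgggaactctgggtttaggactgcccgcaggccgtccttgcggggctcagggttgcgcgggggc
Dcx chrX:143933312-143933469: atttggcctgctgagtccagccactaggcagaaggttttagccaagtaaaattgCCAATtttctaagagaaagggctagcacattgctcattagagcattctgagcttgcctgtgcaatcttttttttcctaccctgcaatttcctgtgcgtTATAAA

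The motifs searched in the 250 bases before the start were TATAAA (present in 12.4% of the 32851 RefSeq promoters), CCAAT (33.8%), GGGCGG (32.7%), CAGCTG (13.0%), CAGATG (14.4%) and TGACGTCA (1.55%). Counted back from the RefSeq start, Map1a held GGGCGG, read as CCGCCC on the gene's strand, beginning 227, 105, 100 and 78 bases before it, of which the matches at 105 and 100 overlap by a base. It also held CCAAT 58 bases before the start. Dcx held CCAAT at 196 and TATAAA at 98 bases, and Map6d1 held CCAAT, read as ATTGG, at 68 bases. Of the 6 members with a promoter, 4 held CCAAT, 3 GGGCGG, 2 TATAAA, 1 CAGATG and none of them CAGCTG or TGACGTCA. A match says only that these letters are in the window.

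In WT mice the 10 genes followed several courses from E17.5 to adult. Map1a and Map6d1 rose in all 3 regions, Dcx, Stmn1, Map1b, Mapt and Stmn2 were lower in the adult than at E17.5 in all 3 regions, and the other 3 differed by region. Map2 rose in HIP and fell in CB, Dclk1 rose in CX and HIP, and Map6 fell in HIP and CB, while their changes in the remaining region did not pass the test. The plot of levels by period shows each library. Across the 9 combinations of period and region, the highest mean level exceeded the lowest by a ratio of 269 for Dcx, 20.7 for Map6d1, 15.1 for Stmn1 and 12.8 for Map1a, against 2.75 for Map2 and 3.05 for Dclk1. In these whole-tissue libraries, fewer cells of a type and less RNA per cell cannot be told apart.

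**Figure D1:**
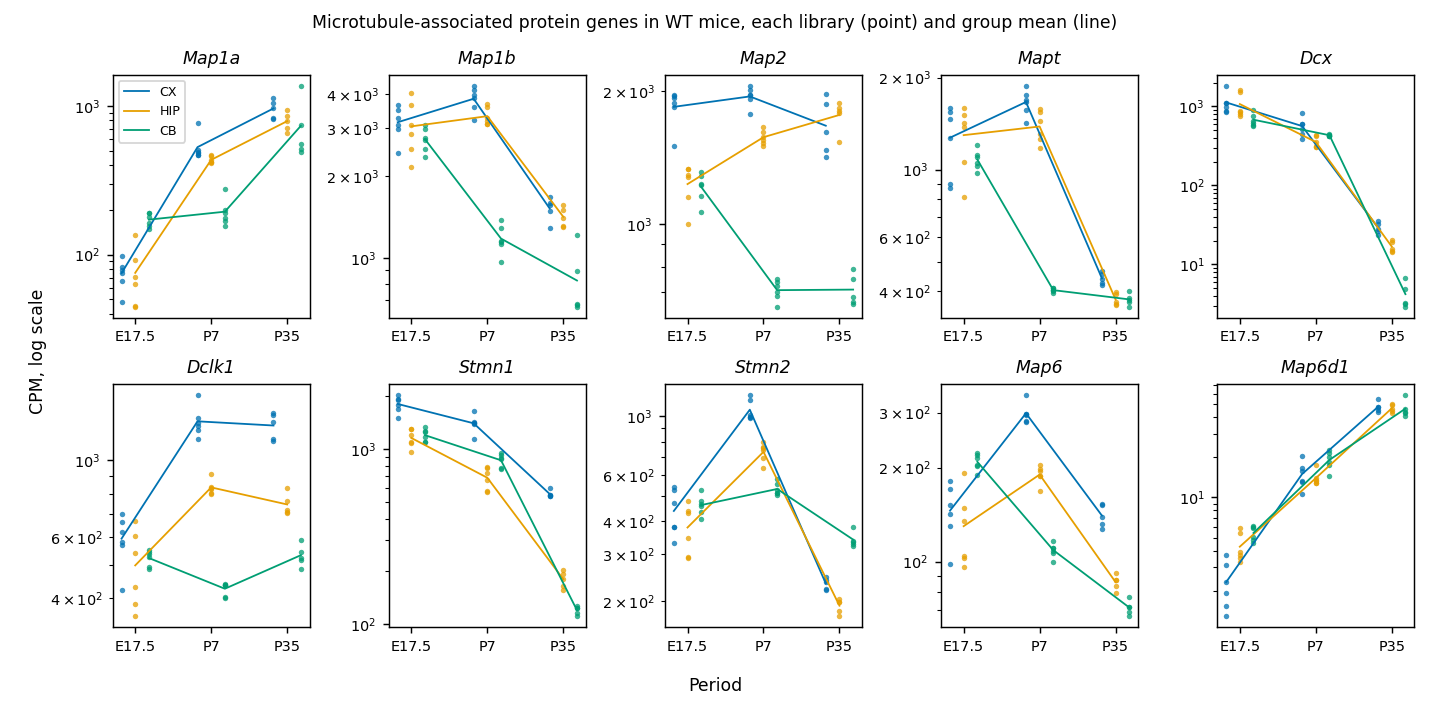
CPM on a log scale (y axis) of the 10 genes in WT mice at E17.5, P7 and P35 (x axis), with a point for each library and a line through the means of CX, HIP and CB. Dcx fell from a mean of 1125 to 29.0 CPM in CX, whereas Map6d1 rose from 2.32 to 47.9 CPM.

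Map1a, a large protein that binds along microtubules of mature neurons and their dendrites, was at 48.2 (lowest), 77.2 (median) and 97.1 CPM (highest) in WT CX at E17.5 and at 463, 484 and 762 CPM at P7. Adult WT CX libraries held 967, 1051, 1129, 819 and 829 CPM. No library of a later period overlapped those of an earlier one in CX, and the change from E17.5 to adult was 3.67 ± 0.17 (log2 fold change ± SE; 12.7-fold; edgeR adjusted p = 4e-13). In HIP the means were 75.3 ± 34.6, 433 ± 24.1 and 788 ± 114 CPM (SD; n = 6, 6 and 5), a log2 change of 3.40 ± 0.23 (edgeR adjusted p = 1.5e-10). In CB Map1a was 172 ± 17.8 CPM at E17.5 (n = 6) and 194 ± 43.5 CPM at P7 (n = 6), and that step did not pass the test (log2 fold change 0.17, edgeR adjusted p = 0.492). Adult CB libraries held 552, 511, 1366, 744 and 490 CPM, all above those of P7, with a log2 change of 1.93 ± 0.22 from P7 (edgeR adjusted p = 2.06e-07). The adult CB library at 1366 CPM, WT replicate 3, stands apart and is taken up below with the long transcripts. On the opposite strand, Ppip5k1 overlaps Map1a and rose from 17.1 to 118 CPM in WT CX over the same time. The libraries were stranded, but the strand setting of the counting is not given in the sources used here.

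Map1b, the relative of Map1a known from growing axons, was at 3151 ± 438 CPM in CX, 3044 ± 704 in HIP and 2728 ± 272 CPM in CB at E17.5 (SD, n = 6). CX rose to 3845 ± 393 CPM at P7 (log2 fold change 0.24 ± 0.10, edgeR adjusted p = 0.0371) and fell to 1568, 1667, 1590, 1480 and 1290 CPM in adults. The adult CX libraries lay below all of those of E17.5 and P7, and the change from P7 was −1.31 ± 0.11 (log2; edgeR adjusted p = 6.94e-09). HIP did the same from P7 to adult, at −1.21 ± 0.13, while its step from E17.5 to P7 (0.11) did not pass. CB took its fall earlier: from E17.5 to P7 the level dropped from 2728 to 1177 ± 143 CPM (n = 6; −1.23 ± 0.14, edgeR adjusted p = 3.2e-07), and from there to 825 ± 240 CPM (n = 5; −0.50 ± 0.14, edgeR adjusted p = 0.00373).

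Map2, the dendritic MAP, had the smallest ratio of highest to lowest WT group mean among the members, at 2.75 over all periods and regions. WT CX held 1844 ± 174 CPM at E17.5 (n = 6), 1947 ± 98.2 at P7 (n = 6) and 1670 ± 245 in adults (n = 5), and neither the step to P7 (log2 0.03) nor the whole span (log2 −0.16) passed the test. From P7 to adult CX it was called lower by −0.19 ± 0.09 (log2; edgeR adjusted p = 0.0905), a call lost under RLE normalization (−0.15), DESeq2 (−0.15), the replicate block (−0.18) and the removal of any of 8 single libraries: E17.5 replicate 2, P7 replicates 1, 2, 4 and 5, and P35 replicates 3, 4 and 6 (−0.19 to −0.13, edgeR adjusted p of 0.101 to 0.243). The whole span was called without E17.5 replicate 4 (−0.21), P35 replicate 1 (−0.20) or P35 replicate 2 (−0.22). HIP rose at both steps, from 1231 ± 130 to 1573 ± 55.5 and 1767 ± 135 CPM (n = 6, 6 and 5), in all by 0.53 ± 0.08 (log2; edgeR adjusted p = 3.63e-06). The step from P7 to adult (0.19 ± 0.08, edgeR adjusted p = 0.0372) lost its call without WT P35 replicate 3 (0.16) and with no filter on low counts (0.15). CB fell from 1213 ± 89.6 to 707 ± 37.0 CPM by P7 (n = 6; −0.79 ± 0.06, edgeR adjusted p = 5.47e-09). Its adult level of 709 ± 57.9 CPM (n = 5) overlapped that of P7.

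Mapt codes for tau, the MAP of axons. In WT CX at E17.5 it was at 871, 1367 and 1589 CPM (lowest, median, highest), at P7 at 1419, 1679 and 1884 CPM, and in the adults at 427, 466, 438, 454 and 419 CPM. The adult libraries lay far below both earlier periods, which overlapped each other. The log2 change from P7 to adult was −1.88 ± 0.15 in CX (edgeR adjusted p = 3.38e-09) and −1.86 ± 0.14 in HIP (edgeR adjusted p = 3.76e-09). In CB the fall came before P7: the level went from 974, 1077 and 1201 CPM at E17.5 to 395, 403 and 410 CPM, the narrowest spread of any WT group of Mapt, by −1.43 ± 0.05 (log2; edgeR adjusted p = 2.93e-13). CB then held 369, 375, 399, 381 and 357 CPM in adults. This step of −0.09 (log2) did not pass the test, but passed it in 14 of 24 alternative settings, in all of which it was negative (−0.14 to −0.07). By adulthood the 3 regions had come close, with means of 441 ± 19.3 in CX, 376 ± 16.9 in HIP and 376 ± 15.9 CPM in CB (n = 5).

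Dcx, doublecortin, which binds microtubules in migrating young neurons and is mutated in forms of lissencephaly, fell further than any other member. In WT CX it was at 840, 1046 and 1838 CPM at E17.5 (lowest, median, highest) and at 389, 559 and 830 CPM at P7. The adult CX libraries held 32.3, 26.1, 35.1, 23.5 and 28.01 CPM. No library of one period overlapped those of another in CX, and the level was 39.1-fold lower in adults than at E17.5 (log2 −5.29 ± 0.24, edgeR adjusted p = 4.84e-13). HIP went from 1072 ± 387 to 355 ± 58.7 and 16.8 ± 2.73 CPM (n = 6, 6 and 5), 63.4-fold in all. CB went from 679 ± 130 to 432 ± 10.5 CPM (n = 6) and then to 2.92, 3.15, 6.75, 4.91 and 3.21 CPM in adults, 163-fold below E17.5 (log2 −7.35 ± 0.22, edgeR adjusted p = 5.92e-16). The adult values of CX, HIP and CB did not overlap, in that falling order.

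Dclk1, which joins doublecortin domains to a kinase domain, did not share this course at the level of the gene. Its 15 annotated transcripts were counted together. WT CX rose from 594 ± 97.3 to 1298 ± 135 CPM by P7 (n = 6; log2 1.08 ± 0.10, edgeR adjusted p = 2.86e-08) and held 1297, 1369, 1137, 1353 and 1157 CPM in adults, overlapping those of P7. HIP rose from 497 ± 126 to 836 ± 41.1 CPM (n = 6; 0.74 ± 0.12, edgeR adjusted p = 3.43e-05). CB dipped from 522 ± 27.1 to 426 ± 17.9 CPM at P7 (n = 6; −0.31 ± 0.05, edgeR adjusted p = 5.11e-05) and came back to 532 ± 37.8 CPM (n = 5), with 0.03 from E17.5 to adult, which did not pass. At P7 and in adults every CX library exceeded every HIP library, and every HIP library every CB library.

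Stmn1, the stathmin that binds free tubulin dimers and is common in proliferating cells and young neurons, fell at every step. WT CX went from 1505, 1846 and 2033 CPM (lowest, median, highest) at E17.5 to 1133, 1409 and 1638 CPM at P7, and to 537, 601, 538, 543 and 544 CPM in adults. E17.5 and P7 overlapped, whereas the adult libraries lay below both. The log2 change from E17.5 to adult was −1.72 ± 0.10 in CX (edgeR adjusted p = 6.49e-12), −2.67 ± 0.12 in HIP (5.11e-13) and −3.33 ± 0.08 in CB (2.7e-17). Adult CB held 123, 111, 116, 123 and 126 CPM, below adult HIP (157 to 204 CPM) and adult CX, with no overlap. Stmn1 was the only member with counts that were not whole, in 99.1% of its values. RSEM gives such counts where it shares out reads, so the level of Stmn1 is less certain than that of the others.

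Stmn2, a neuronal stathmin attached to membranes and found in growth cones, peaked at P7. WT CX held 438 ± 85.4 CPM at E17.5 and 1058 ± 94.7 at P7 (n = 6), a rise of 1.22 ± 0.11 (log2; edgeR adjusted p = 6.19e-09), and then 221, 246, 240, 222 and 237 CPM in adults, a fall of 2.15 on the log2 scale. The 3 periods did not overlap in CX. HIP went from 379 ± 80.5 to 733 ± 58.5 and 192 ± 11.9 CPM. In CB the peak was lower, 531 ± 29.8 CPM against 461 ± 40.1 at E17.5 (n = 6; 0.19 ± 0.06, edgeR adjusted p = 0.00906), and the adult level of 341 ± 23.3 CPM (n = 5) was the highest of the 3 regions.

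Map6, the stable-tubule-only protein that keeps microtubules from falling apart in the cold, also peaked at P7 in the forebrain. WT CX went from 146 ± 29.7 to 299 ± 22.4 CPM (n = 6; log2 0.99 ± 0.11, edgeR adjusted p = 1.64e-07) and back to 140 ± 11.4 CPM (n = 5), so that adult and E17.5 levels overlapped (−0.07, not passed). HIP followed with 130 ± 36.7, 190 ± 12.6 and 85.9 ± 4.72 CPM. CB instead fell at both steps, from 209 ± 12.5 to 109 ± 5.53 and 71.2 ± 3.88 CPM (−1.55 ± 0.06 in all, edgeR adjusted p = 9.13e-15).

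Map6d1, a smaller relative of Map6, had the lowest level per kilobase of exon of the 10 at E17.5 and rose at each step. WT CX was at 1.29, 2.12 and 3.73 CPM (lowest, median, highest) at E17.5, at 10.5, 14.6 and 20.6 CPM at P7, and at 45.0, 55.1, 47.8, 43.8 and 47.7 CPM in adults. No periods overlapped, and the change from E17.5 to adult was 20.6-fold (log2 4.36 ± 0.22, edgeR adjusted p = 2.06e-12). HIP went from 4.27 ± 1.09 to 13.96 ± 1.84 and 46.6 ± 3.06 CPM, and CB from 5.42 ± 0.712 to 19.1 ± 2.98 and 46.4 ± 7.15 CPM (n = 6, 6 and 5). The adult levels overlapped across the 3 regions.

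From E17.5 to P7 in WT CX, 7 of the 10 genes were called higher and 2 lower, where 41.3% and 40.6% of all genes tested were. From P7 to adult 2 were higher and 7 lower (all genes 33.2% and 34.5%), and from E17.5 to adult 3 were higher and 5 lower (41.2% and 43.8%). In HIP the counts were 6 higher and 2 lower (38.9% and 39.1%), 3 and 6 (31.3% and 31.5%), and 4 and 6 (39.5% and 41.7%). In CB they were 2 and 7 (35.7% and 35.5%), 3 and 5 (40.0% and 39.4%), and 2 and 7 (40.1% and 42.0%). Most genes of the brain change over these weeks, so the counts at this threshold say little by themselves. Counting only called changes of 1 or more on the log2 scale, 4 rose and 1 fell in CX from E17.5 to P7 (22.9% and 14.5% of all genes), 1 and 6 from P7 to adult (10.3% and 11.6%), and 3 and 4 over the whole span (25.9% and 22.2%). HIP had 2 and 1 (17.8% and 13.1%), 1 and 6 (7.95% and 10.4%), and 2 and 4 (21.8% and 19.6%). CB had 1 and 2 (10.0% and 10.1%), 2 and 2 (16.6% and 17.7%), and 2 and 5 (19.6% and 20.4%). The median log2 change of the 10 from P7 to adult was −1.18 in CX, −1.16 in HIP and −0.30 in CB, beside medians of −0.03, −0.01 and 0.01 over all genes.

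Mutant mice are a separate set of animals for the same contrasts. Of the 90 changes between periods (10 genes, 3 regions, 3 contrasts), 79 were called in WT and 79 in mutant mice, where 31.8% to 42.9% of all genes were called higher and 33.2% to 44.7% lower in a mutant contrast. The sign was the same in 86 of the 90, 77 were called in the same direction in both genotypes, none were called in opposite directions, and the largest gap between the genotypes was 0.55 on the log2 scale.

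The regions differed most at P7. At E17.5 3 of the 10 genes were called between HIP and CX (1 higher and 2 lower in HIP, where 24.2% and 22.3% of all genes were), 6 between CB and CX (3 and 3; 31.3% and 30.3%) and 5 between CB and HIP (4 and 1; 25.0% and 24.5%). At P7 the counts were 9 (0 higher and 9 lower; 27.8% and 29.2%), 10 (1 and 9; 44.1% and 38.8%) and 10 (3 and 7; 42.3% and 36.0%). In adults they were 6 (0 and 6; 25.5% and 25.9%), 9 (1 and 8; 38.9% and 36.5%) and 7 (1 and 6; 38.3% and 36.8%). In the mutant mice 67 of the 90 region differences were called, against 65 in WT, of which 62 were called in both with the same sign and none with opposite signs. In a mutant contrast between regions 26.5% to 43.4% of all genes were called higher and 25.4% to 39.1% lower. These fits kept the mouse as a block, since the regions came from the same animals.

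In P7 cerebellum 9 of the 10 genes were below the cortex. The differences were −1.39 ± 0.12 for Map1a, −1.66 ± 0.08 for Map1b, −1.41 ± 0.04 for Map2, −1.99 ± 0.05 for Mapt, −1.55 ± 0.06 for Dclk1 and −1.40 ± 0.06 for Map6 (log2 of CB over CX ± SE, n = 6 mice), and the 2 regions did not overlap for any of these 6 genes. By this size of 1 or more, 6 of 10 were lower, where 18.3% of all genes were. Stmn1 (−0.65 ± 0.06) and Stmn2 (−0.94 ± 0.06) differed less. Dcx was called lower by −0.30 ± 0.13 (edgeR adjusted p = 0.0400) in CB, but not without the libraries of the long-transcript shift described below (−0.14, edgeR adjusted p = 0.116). Map6d1 was the exception, at 19.1 against 14.99 CPM (0.41 ± 0.09, edgeR adjusted p = 0.000535).

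At E17.5 it was the cerebellum that held more of Map1a (172 against 74.8 CPM in CX, log2 1.24 ± 0.17, edgeR adjusted p = 4.58e-05), Map6d1 (5.42 against 2.32 CPM, 1.32 ± 0.15) and Map6 (209 against 146 CPM, 0.58 ± 0.14). Map2 (−0.57 ± 0.08), Dcx (−0.68 ± 0.23) and Stmn1 (−0.57 ± 0.10) were lower there than in CX. Against HIP, CB held less Dcx (−0.64 ± 0.23, edgeR adjusted p = 0.0381) and more Map6d1 (0.37 ± 0.15, edgeR adjusted p = 0.0535), which are the weakest of these calls. That of Dcx was lost without WT replicate 1 (−0.48, edgeR adjusted p = 0.160) or replicate 6 (−0.46, edgeR adjusted p = 0.127), and that of Map6d1 without replicate 1 (0.38), replicate 2 (0.28) or replicate 3 (0.34), at edgeR adjusted p of 0.109, 0.187 and 0.129. Stmn2 was called higher in CB than in HIP (0.30 ± 0.10, edgeR adjusted p = 0.0279), but not without the mouse as a block (0.28).

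In adults Stmn1 and Dcx set the regions furthest apart. The log2 difference of adult CB from CX was −2.21 ± 0.07 for Stmn1 (edgeR adjusted p = 2.05e-11) and −2.82 ± 0.16 for Dcx (edgeR adjusted p = 6.07e-09), and that of HIP from CX was −1.64 ± 0.07 for Stmn1. Dclk1 (−1.25 ± 0.06), Map2 (−1.23 ± 0.09), Map6 (−0.98 ± 0.06) and Map1b (−0.91 ± 0.13) were lower in CB than in CX as well, as was Mapt (−0.23 ± 0.04). Stmn2 alone of the 10 was higher, at 341 against 233 CPM (0.54 ± 0.05, edgeR adjusted p = 2.75e-07). Map1a was called lower (−0.48 ± 0.18, edgeR adjusted p = 0.0287), and lost the call without the block (−0.39, edgeR adjusted p = 0.144), without WT replicate 1 (−0.40, edgeR adjusted p = 0.114) or without replicate 2 (−0.34, edgeR adjusted p = 0.148).

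**Figure D2:**
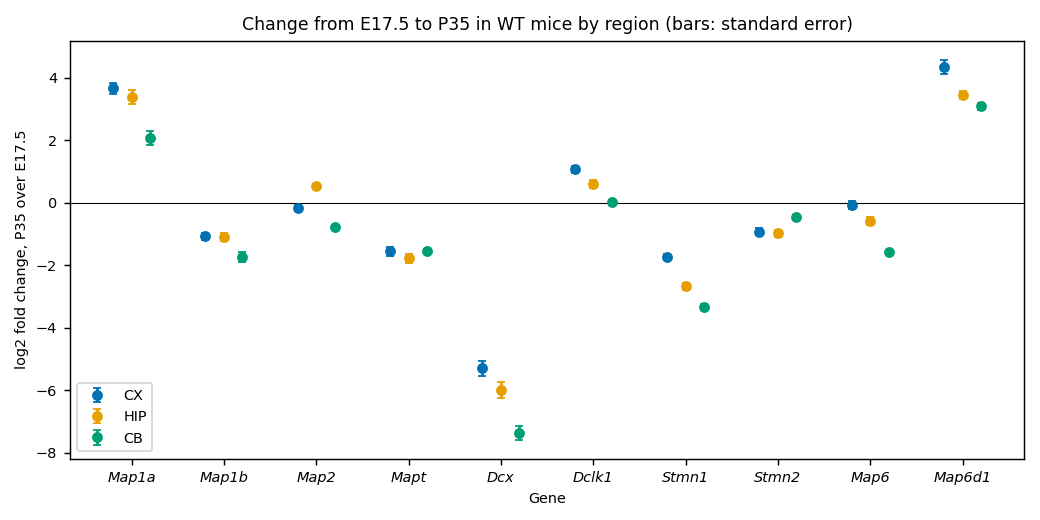
Log2 fold change from E17.5 to P35 (y axis) of the 10 genes (x axis) in WT mice, with a point for CX, HIP and CB and bars for the standard error. For Stmn1 the fall deepens from −1.72 in CX to −2.67 in HIP and −3.33 in CB, while Map2 is at −0.16, 0.53 and −0.78.

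The change from E17.5 to adult differed between CB and CX for 9 of the 10 genes in WT mice, tested as the interaction itself, where 66.6% of all genes differed. The same held for 9 between CB and HIP (64.6% of all genes) and for 6 between HIP and CX (44.3%). Mapt was the gene whose change did not pass in any of the 3 comparisons, with a difference of −0.04 ± 0.15 between CB and CX. The plot of changes by region shows the gaps, of which the widest were Dcx (CB minus CX −2.10 ± 0.29 on the log2 scale, edgeR adjusted p = 1.51e-07), Map1a (−1.68 ± 0.24, edgeR adjusted p = 3.48e-07) and Stmn1 (−1.60 ± 0.12, edgeR adjusted p = 1.51e-13). Map2 rose in HIP and fell in CB, a difference of −1.28 ± 0.11 (edgeR adjusted p = 3.48e-12).

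Per kilobase of exon, the level of Stmn1 was the highest of the 10 in 8 of the 9 WT groups, at 940 CPM per kb in E17.5 CX against 199 for Map1b and 0.706 for Map6d1. In adult HIP Map2 was first, at 107 CPM per kb, ahead of Stmn1 at 93.6. In adult CB the leading genes were close, with Stmn1 at 62.2, Stmn2 at 60.9 and Map1a at 60.2 CPM per kb. With the longest coding transcript as the length, an alternative added after the data were seen, Stmn2 was ahead of Stmn1 in adult CB, at 165 against 113 CPM per kb. Dcx was last in all 3 adult regions and Map6d1 in all groups of E17.5 and P7, by either length.

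Over the 9 WT group means of log2 CPM, 3 of the 45 pairs of members had a Pearson correlation above 0.9: Map1b with Mapt (0.959), Dcx with Stmn1 (0.949) and Map1a with Map6d1 (0.920). In mutant mice the same pairs were at 0.926, 0.937 and 0.910. The lowest was Dcx with Map6d1 (−0.859 in WT and −0.842 in mutant mice). Among the 13323 other genes whose mean CPM was worth at least 10 counts of the smallest library in all 9 groups, the closest to Map1a were Atp6ap1 and Ckmt1 (both 0.996), to Dcx Ddx54 (0.994) and Nras (0.994), to Stmn1 Fnbp1l (0.989) and Gm11223 (0.987), and to Map6d1 Ctsa (0.991) and Plekhb1 (0.989). For Map6 a stathmin that is not a member, Stmn4, came first (0.972), then Fsd1 (0.970). Map1b was closest to Caml (0.984) and Evi5l (0.982), Map2 to Shisa7 (0.985) and Zfp174 (0.980), Mapt to Fchsd1 (0.981) and Lrfn4 (0.979), Dclk1 to Necab1 (0.981) and Lrrc4c (0.976), and Stmn2 to Gnb4 (0.976) and Myo16 (0.963). The 9 points share mice across regions and a strong effect of age, so these values describe likeness over 9 groups and nothing more.

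Cell type markers moved with the same contrasts. In WT CX the summed level of 6 neuron markers went from a median of 914 CPM at E17.5 to 2790 at P7 and 5049 in adults, while 7 progenitor and proliferation markers went from 698 (range 523 to 1279) to 144 and 71.0 CPM. In CB the progenitor sum was 1061 CPM at E17.5 (936 to 1205), 1143 CPM at P7 (1073 to 1281) and 157 CPM in adults, and the neuron sum was 925 (898 to 999), 1011 (917 to 1052) and 3453 CPM. For both lists the CB libraries of E17.5 and P7 overlapped. Over that step Map1b, Map2, Mapt, Dcx, Dclk1, Stmn1 and Map6 were called lower in CB. Stmn2 and Map6d1 were called higher, and Map1a did not pass. The glial sums of CB rose at the same time, from 65.0 to 1477 CPM for oligodendrocyte and from 1043 to 2809 CPM for astrocyte markers. The 8 oligodendrocyte markers rose from 36.0 to 170 and 4814 CPM in CX, and the 7 astrocyte markers from 388 to 1783 and 4756 CPM. Choroid plexus markers varied from library to library, between 7.52 and 4700 CPM in WT HIP at E17.5. The part of cell composition in the changes of the 10 genes was not tested.

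At E17.5 the names of the mice in the labels begin with S2, S3 or S4, with 2 WT and 2 mutant mice under each, and the labels do not say what the prefix stands for. In CX the 4 libraries of S3 mice held less Mapt than the 8 others, 762 to 899 against 1269 to 1589 CPM, with no overlap. Dclk1 (373 to 571 against 583 to 702 CPM), Stmn1 (1505 to 1692 against 1791 to 2033), Stmn2 (290 to 380 against 382 to 538), Map6 (86.2 to 130 against 142 to 181) and Map6d1 (0.975 to 1.54 against 1.74 to 3.73) did the same. These 6 of 10 members compare with 12.9% of 14267 genes that were lower without overlap in the S3 libraries and 12.2% that were higher. In HIP Mapt was again lower (582 to 1057 against 1320 to 1595 CPM), as 1 of the 10 members, where 10.2% of genes were. In CB Mapt (1119 to 1365 against 909 to 1112 CPM) and Map2 (1287 to 1648 against 1040 to 1277 CPM) were higher instead, 2 of 10 against 5.26% of genes. Progenitor and proliferation markers summed to 1083 to 1350 CPM in the S3 libraries of CX against 523 to 791 in the others, and in CB to 836 to 984 against 1035 to 1205. The neuron markers, at 771 to 874 against 846 to 965 CPM in CX, overlapped. The part of progenitors in these values was not tested.

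**Figure D3:**
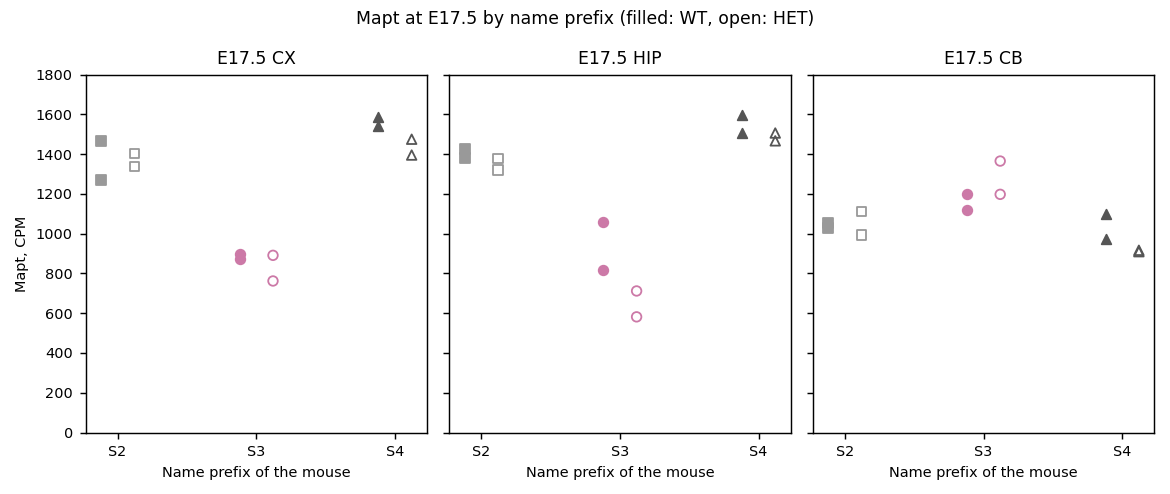
Mapt in CPM (y axis) at E17.5 by the prefix of the mouse name (x axis), with a symbol for each library, filled for WT and open for HET mice, in CX, HIP and CB. The 4 S3 libraries sit between 762 and 899 CPM in CX, below all others, and between 1119 and 1365 CPM in CB, above all others.

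A few libraries stood apart by transcript length, which was seen only after the data were examined. The difference between 781 genes with coding transcripts of 8000 bases or more and 2045 genes with 2000 bases or less, in each library relative to the median of its period and region, ran from −0.22 to 0.31 (log2) in 96 libraries and was beyond 0.4 in size in 6. These were WT adult CB replicate 3 (0.61), WT P7 CX replicate 4 (0.55), WT E17.5 HIP replicate 6 (0.52) and HET P7 HIP replicate 3 (0.41) on the side of long transcripts, and HET E17.5 CX replicate 4 (−0.48) and HET E17.5 HIP replicate 4 (−0.40) on the other. Map1a, whose longest coding transcript has 11825 bases, followed the shift with deviations of 1.33, 0.69, 1.10, 0.58, −1.18 and −1.27 (log2) in these libraries. Map1b (11808 bases) deviated in the same order by 0.83, 0.17, 0.46, 0.26, −0.80 and −0.98. Dcx (9074 bases) deviated by 1.04, 0.59, 0.89, 0.45, −0.28 and −0.50, on the side of the shift in each. Shorter members moved as well: Map6d1 (3280 bases) by 0.41, 0.65, 0.62, 0.15, −0.97 and −0.23, and Stmn2 (2073 bases) by 0.23, 0.25, 0.45, −0.01, −0.66 and −0.94. Stmn1 (1060 bases) was below its median in all 6, by −0.10 to −0.33, also in the HET E17.5 libraries on the other side. Whether transcript length accounts for the deviations of the members was not tested. The part of the shift in the results of the long members was not tested beyond fits without the 6 libraries. Without them the call of Map1a between HIP and CX at P7 was lost (−0.29 to −0.16, edgeR adjusted p = 0.175), as was that of Dcx between CB and HIP at E17.5 (−0.44, edgeR adjusted p = 0.111).

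**Figure D4:**
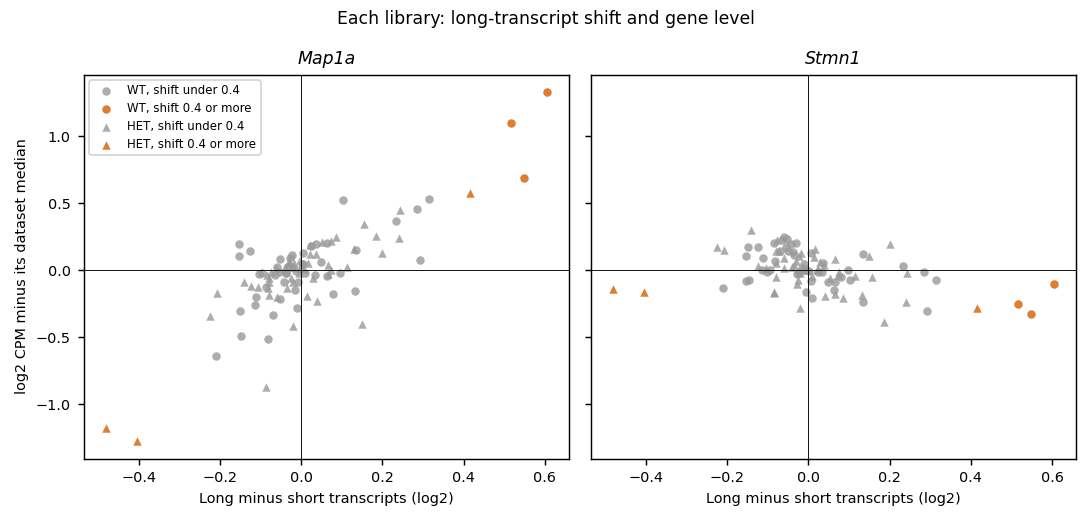
Deviation of Map1a and Stmn1 from the median of their period and region (y axis, log2 CPM) against the difference between long and short transcripts (x axis, log2) in each of the 102 libraries, with circles for WT and triangles for HET mice. The 6 libraries beyond 0.4 in size are coloured, and for Map1a they include deviations of 1.33 and −1.27.

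No member was called between mutant and WT mice in any of the 9 datasets. Of the 90 tests, 1 had an unadjusted p under 0.05 by edgeR's quasi-likelihood test, 1 by its likelihood ratio test (0 called) and 2 by DESeq2 (0 called). By edgeR's quasi-likelihood test Cul3 was the only gene called in each dataset, which is 0.00603% of the genes tested in E17.5 CX, 0.00586% in HIP and 0.00568% in CB, 0.00566%, 0.00563% and 0.00570% in CX, HIP and CB at P7, and 0.00569%, 0.00584% and 0.00584% in adults. The likelihood ratio test called 0.877% of all genes in adult CB and between 0.00568% and 0.0175% in the other 8 datasets, and DESeq2 called 1.27% in adult CB and between 0.00586% and 0.0338% in the other 8. The share of all genes with an unadjusted p under 0.05 was 1.67%, 2.29% and 3.50% in CX, HIP and CB at E17.5, 3.22%, 5.05% and 4.89% at P7, and 3.66%, 6.25% and 14.4% in adults, and the share without overlap between genotypes was 0.0603%, 0.0586% and 0.153%, 0.164%, 0.220% and 0.188%, and 0.609%, 1.08% and 2.64% in the same order. The estimates ran from −0.48 (Map1a, adult CB) to 0.17 (Dcx, P7 HIP) on the log2 scale. The spread between mice set the precision, with standard errors from 0.04 (Mapt, adult CX) to 0.31 (Map1a, E17.5 HIP).

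The member with the smallest p in each dataset follows, as log2 fold change ± SE with the edgeR adjusted p. In the embryonic period it was Map1b in CX (−0.24 ± 0.15, 0.991), Dcx in HIP (−0.40 ± 0.21, 0.941) and Stmn2 in CB (−0.12 ± 0.06, 0.988). In the early postnatal period it was Map6d1 in CX (−0.27 ± 0.15, 0.8997), Dcx in HIP (0.17 ± 0.12, 0.833) and Stmn2 in CB (−0.06 ± 0.05, 0.994). In adults it was Map6d1 in CX (0.997), Map1a in HIP (0.15 ± 0.09, 0.808) and Stmn2 in CB (−0.16 ± 0.07, 0.351), the last with WT mice at 324 ± 21.3 and mutant mice at 291 ± 29.5 CPM (n = 5) when scaled within adult CB, as the test does. In E17.5 CX same-numbered mice of both genotypes, which share a name prefix, deviated together. With the replicate number as a block Map1b there was at −0.26 (edgeR adjusted p = 0.2105), also not called.

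Map6d1 in adult CX was the single member whose genotypes did not overlap. WT mice held 45.0, 55.1, 47.8, 43.8 and 47.7 CPM, and mutant mice 40.2, 43.1, 40.3, 44.0 and 40.0 CPM on the scale of all libraries, where the lowest WT value lies below the highest mutant value. Scaled within adult CX, as the test does, WT ran from 39.2 to 47.4 CPM and mutants from 36.1 to 38.9 CPM, so that the gap depends on the scaling. The log2 fold change was −0.19 ± 0.05 (edgeR adjusted p = 0.997), and 0.609% of all genes did not overlap there. With factors of unwanted variation removed by RUVs, which the study also used but together with a term for sex that these fits lack, Map6d1 was called lower with 3 factors (−0.19, adjusted p = 0.0456 by edgeR's likelihood ratio test) and with 5 (−0.18, adjusted p = 0.0344), where 0.188% and 0.472% of all genes were called. Over all other settings its edgeR or DESeq2 adjusted p ran from 0.473 to 1. Map1a in adult HIP was called higher with 5 factors alone (0.14, adjusted p = 0.0913 by edgeR's likelihood ratio test), where 2.84% of all genes were called, with adjusted p of 0.393 to 1 elsewhere.

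Map1a in adult CB had the largest estimate, −0.48 ± 0.25 (edgeR adjusted p = 0.363, and 0.264 to 0.965 over its alternatives). Mutant libraries held 522, 548, 539, 564 and 500 CPM, inside the WT range of 490 to 1366 CPM. Without WT replicate 3, the library at 1366 CPM, the estimate was −0.13 (edgeR adjusted p = 0.628). In E17.5 CX and HIP all 10 estimates were below 0, with medians of −0.15 and −0.22 beside −0.00114 and 0.00244 over all genes. Both datasets hold a mutant library of the long-transcript shift, replicate 4, in which all 10 genes were below their median. Both libraries come from 1 mouse, and CX and HIP share their mice, so the datasets are not independent of each other. The name of that mouse has the prefix S3, whose libraries are described above. The parts of prefix and shift in its values were not tested. The WT mice of E17.5 HIP also hold a library shifted toward long transcripts, replicate 6. Without the libraries of the shift Map1b in E17.5 CX was at −0.14 and Dcx in E17.5 HIP at −0.20.

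**Figure D5:**
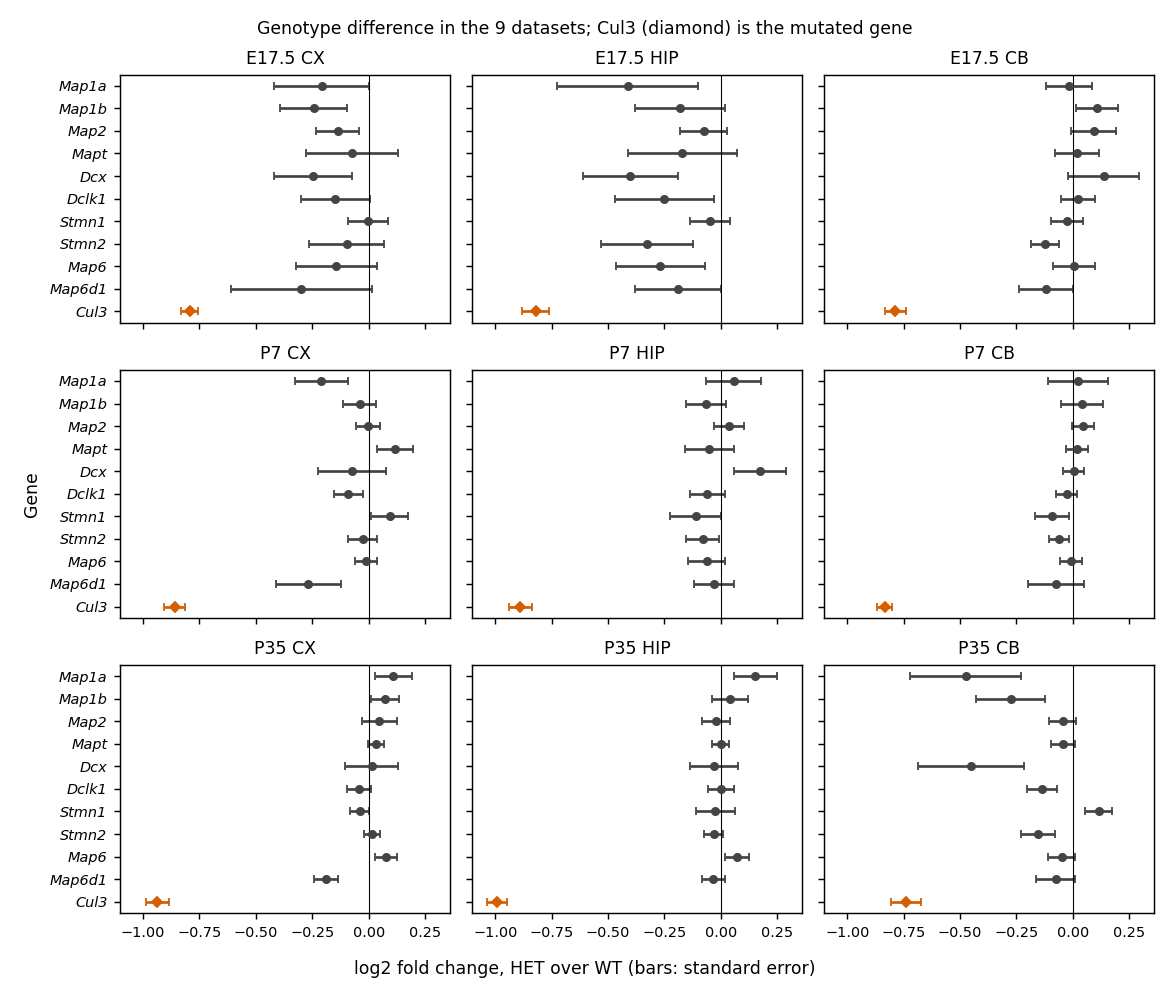
Log2 fold change of HET over WT mice (x axis) with standard errors for the 10 genes (y axis) in the 9 datasets, and Cul3 as a diamond. The members lie between −0.48 and 0.17, and Cul3 between −0.99 and −0.74.

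Within the name prefixes of E17.5 CX, the ratio of the mutant to the WT mean of Mapt was 0.00 in S2, −0.10 in S3 and −0.12 in S4 (log2, 2 mice against 2), and that of Map1a was 0.06, −0.51 and −0.24. With the prefix as a block no member was called at E17.5 or P7. No genotype effect on a member was found to differ between periods (0 of 30 tests called and 0 with p under 0.05, by edgeR's quasi-likelihood or likelihood ratio test) or between regions (0 of 30 called and 2 with p under 0.05 by either test). Those 2 were Map1a in adults (edgeR adjusted p = 0.283) and Stmn1 at P7 (edgeR adjusted p = 0.826). Of all genes, 0.00525% were called between regions in adults and 0% in the other 5 of these comparisons.

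The wider set of microtubule regulators, 65 genes in 7 lists, moved in both directions as well. Of the 63 tested in WT CX, 22 were called higher and 33 lower from E17.5 to adult, beside the 41.2% and 43.8% of all genes given above, and in CB 25 and 33 of 64 were (40.1% and 42.0%). All 5 genes of the CRMP family, which bind tubulin in growing axons, were lower in CX, with a median log2 change of −2.71 against −0.05 over all genes. Dpysl3 fell from 2535 to 64.7 CPM (−5.31 ± 0.11, edgeR adjusted p = 1.96e-17) and Dpysl5 from 594 to 19.8 CPM (−4.92 ± 0.15, edgeR adjusted p = 2.4e-15), and both still stood near their E17.5 level at P7 (2551 and 660 CPM).

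Among the other stathmins and doublecortin relatives 3 rose and 2 fell in CX, Dclk3 by 4.53 and Dcdc2a by 4.23 (log2) upward and Dclk2 by −1.99. Of 10 tested genes of a list of MAP1, MAP4 and MAP7 family members with Map9, Mtus1 and Mtus2 6 rose, including Map7 (4.54 ± 0.12), which recruits kinesin, and Map7d2 (3.20 ± 0.12), and 2 fell, including Mtus1 (−1.22 ± 0.08). Of 16 proteins that bind microtubule ends 3 rose, including Mapre3 (1.17 ± 0.13), and 10 fell, including Slain2 (−1.82 ± 0.07) and Camsap3 (−1.79 ± 0.09), a minus-end binder. Of 9 severing and depolymerizing enzymes 1 rose and 6 fell, including Kif2c (−5.52 ± 0.37), the mitotic depolymerizing kinesin, from 18.5 to 0.397 CPM, and Fignl1 (−3.97 ± 0.28). Of 11 kinases that phosphorylate MAPs, with their activators, 5 rose and 5 fell, with Cdk5r2 (3.49 ± 0.23), an activator of Cdk5, and Mapk10 (1.90 ± 0.10) rising most. Of 7 lissencephaly and dynein regulators 4 rose and 3 fell, none by 1 or more on the log2 scale. No gene of these lists was called by genotype in any of the 9 datasets, and between 0 and 6 of them had an unadjusted p under 0.05 by edgeR's quasi-likelihood test, 6 of 62 in adult CB, where 14.4% of all genes had.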

How the data were processed

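The study sequenced total RNA, depleted of ribosomal RNA, from 3 brain regions of 36 mice with a stranded kit. Per the labels and the study's methods, the authors trimmed reads with cutadapt (1.14), aligned them with STAR (2.5.3a) to GRCm38.p5 (mm10) and deposited expected counts per gene from RSEM (1.3), of which 5.76% were not whole. Counts were rounded here, and 53274 of 53465 gene identifiers had a symbol. Counts per gene join all of its transcripts, so changes between transcripts of a member are not seen. The strand setting of the counting is not given in the sources used here. Reads of near-identical genes are shared out by RSEM, which can move counts between copies, and long transcripts gather more counts than short ones at the same number of molecules.

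Groups came from the labels. The 6 libraries of 2 adult mice were left out of the main fits. Lowly counted genes were dropped with filterByExpr (10 counts, 15 in total), libraries were normalized by TMM and genes tested with edgeR's quasi-likelihood test (edgeR 4.0.16, limma 3.58.1, R 4.3.3), with Benjamini-Hochberg adjustment over all genes and a threshold of 0.1. Genotype was tested in each of the 9 datasets of a period and region, period within a region and genotype, region within a period and genotype with the mouse as a block, and the interactions over the datasets they join. Levels are CPM with mean ± SD, and log2 CPM used a prior count of 2. Totals ran from 15126114 to 44411282 counts. Over 240 pairs of replicates the chi-square per gene was 5.73 to 161, so no library was a copy of another of its group. Libraries of different groups were not compared in this way. Tests were checked on simulated counts.

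Alternatives were RLE and upper-quartile normalization, no filter on low counts, DESeq2 (1.42.0), the likelihood ratio test, the replicate number, the mouse name prefix or Xist as a term, 3 or 5 RUVs factors, the left-out mice put back, and each mouse or library left out. Fits without the 6 libraries of the long-transcript shift, and the length of the longest transcript, were added after the data were seen. Same-numbered mice of both genotypes deviated together in E17.5 CX, with all 6 correlations between 0.113 and 0.759, and not in all pairs of the other 8 datasets. At E17.5 and P7 same-numbered mice also share the name prefix, so replicate number and prefix are not separate checks.

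The 10 genes were named by the rule of their symbols, each described in every region and period. Of each list of other microtubule genes, up to 2 with the largest rise and 2 with the largest fall among those called and changed by 1 or more (log2, E17.5 to adult, WT CX) were named. In each genotype comparison the member with the smallest p was named, and for each member the 2 genes most correlated with it. The members, lists and markers were chosen with earlier results of these data known. Figures were drawn with matplotlib (3.10.9) in Python (3.11.15).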

Additional observations from a re-analysis of the deposited data

Results flagged for a closer look

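In 12 of 180 groups (10 genes, 18 groups of 5 or 6 libraries; 6.67%) the highest or the lowest library stood further from its nearest neighbour than Dixon's 95% limit allows. Chance flags about 1 in 20 groups. In E17.5 CX these were Map2 in WT replicate 4 (1500 CPM, others 1843 to 1959), Dcx in WT replicate 3 (1838 CPM, others 840 to 1110) and Map1b in HET replicate 4 (1687 CPM, others 2705 to 3096). At P7 they were Map1a in WT CX replicate 4 (762 CPM, others 463 to 504), Map6 in the same library (342 CPM, others 281 to 297), Map1a in WT CB replicate 6 (277 CPM, others 155 to 201), Dclk1 in WT HIP replicate 6 (914 CPM, others 800 to 836) and Map6d1 in WT HIP replicate 5 (17.6 CPM, others 12.7 to 13.9). In adults they were Stmn1 in WT CX replicate 2 (601 CPM, others 537 to 544), Stmn1 in HET CX replicate 6 (478 CPM, others 534 to 552), Stmn2 in WT CB replicate 3 (382 CPM, others 323 to 337) and Dcx in HET HIP replicate 2 (13.1 CPM, others 16.9 to 17.51). Of the 12, 4 fell in libraries of the long-transcript shift.

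The change from E17.5 to adult in WT mice differed between regions, by edgeR's test of the difference itself, in 24 of 30 cases. Given as the difference of log2 changes, HIP minus CX was 0.66 for Map2, −0.73 for Dcx, −0.50 for Dclk1, −0.99 for Stmn1, −0.54 for Map6 and −0.96 for Map6d1. CB minus CX was −1.68 for Map1a, −0.70 for Map1b, −0.62 for Map2, −2.10 for Dcx, −1.07 for Dclk1, −1.60 for Stmn1, 0.47 for Stmn2, −1.52 for Map6 and −1.32 for Map6d1. CB minus HIP was −1.44 for Map1a, −0.65 for Map1b, −1.28 for Map2, −1.36 for Dcx, −0.57 for Dclk1, −0.61 for Stmn1, 0.55 for Stmn2, −0.98 for Map6 and −0.37 for Map6d1.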

How the results depend on the processing

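The number of members called by genotype was 1 in adult CX with 3 or 5 RUVs factors, 1 in adult HIP with 5 factors, and 1 and 2 over the 9 datasets with 3 and 5 factors, against 0 in the main fits. At E17.5 the members called between CB and HIP went from 5 to 3 without the mouse as a replicate block in WT and in HET mice. Those called in HET mice by 1 or more on the log2 scale went from 2 to 1 under upper-quartile normalization, without the block and without the 6 libraries of the long-transcript shift, and between HIP and CX from 1 to 0 without those libraries. With 1 mouse left out, the count between HIP and CX by 1 or more ran from 0 to 1 in WT (main 0) and 0 to 1 in HET mice, and that between CB and HIP from 3 to 6 in WT (main 5) and, by 1 or more, 1 to 2 in HET mice. Dclk1 from E17.5 to adult in WT CB, not called, was at −0.0388 with upper-quartile normalization, and between −0.0132 and 0.0560 with 1 library left out. Map2 from E17.5 to P7 in WT CX ran from −0.0249 to 0.0563 and Mapt in WT HIP from −0.0228 to 0.144 in the same way. The cause was not tested. With the replicate number as a block, Map2 from P7 to adult in WT CX lost its call (−0.18), and the other calls given with a fold change were kept. Of 34 further period and region values in WT mice that did not pass, 13 changed sign under some setting, the largest of them 0.104 in size (log2), and 10 passed under some setting, 2 of them among the 13. At 5 or 6 mice per group, small genotype differences are beyond these tests, and for Map6d1 at E17.5 the low counts add to the spread.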
